A study of Mus musculus with 11 samples.

Results

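T cell checkpoint and costimulation genes were followed in whole-kidney RNA-seq. The group was chosen by symbol in the deposited count table, and all 10 symbols were found among the 25677 genes listed: the inhibitory receptors Pdcd1, Ctla4, Lag3, Tigit and Havcr2, the costimulatory receptors Icos and Cd28, the ligands Cd274 and Pdcd1lg2, and the nuclear factor Tox. Each of the 11 libraries was made from the kidney of a different female mouse, killed when 21 weeks old. Ctr was 3 C57BL/6J mice (C57B6 in the labels), Lpr was 4 untreated MRL/lpr mice, and DNase was 4 MRL/lpr mice injected intraperitoneally with DNase I every day from week 17. Both MRL/lpr groups carry the lpr mutation of Fas, through which T cells accumulate and a nephritis like that of lupus develops. DNase I digests extracellular DNA. Strain and disease cannot be told apart in a comparison with Ctr, since no MRL mouse without the mutation was measured, and whether Lpr mice received injections of vehicle is not given in the sources used here.

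A T cell needs a signal from its antigen receptor and a costimulatory signal, and Cd28 on the T cell gives the latter when it binds Cd80 or Cd86 on an antigen-presenting cell. Ctla4 competes for the same ligands and restrains the T cell, while Pdcd1 (PD-1) does so when bound by Cd274 (PD-L1) or Pdcd1lg2 (PD-L2). Lag3, Tigit and Havcr2 (TIM-3) are further inhibitory receptors that appear on T cells after activation and stay on cells stimulated for a long time. Icos is an induced relative of Cd28 that supports helper T cells, and Tox is a DNA-binding factor known for maintaining the state of chronically stimulated T cells. Cd274 differs from the receptors in that many cell types make it under interferon, endothelial and epithelial cells included. In lupus nephritis T cells enter the kidney, and the ligands of these receptors have been of interest as brakes in that tissue.

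By RefSeq on GRCm38.p6, the build that the submitters' processing notes name as mm10, 5 of the 10 genes lie in 2 clusters. Cd28, Ctla4 and Icos lie within 254 kb of each other on the plus strand of chromosome 1 (chr1:60746388-61000322), with 0 other protein-coding genes between them. Cd274 and Pdcd1lg2 lie within 111 kb on the plus strand of chromosome 19 (chr19:29362107-29472927), where Plgrkt overlaps Cd274. Pdcd1 lies elsewhere on chromosome 1 (chr1:94038305-94052553), Lag3 next to Cd4 on chromosome 6 (chr6:124904359-124912434), Tigit on chromosome 16 (chr16:43626137-43665125), Havcr2 on chromosome 11 (chr11:46454931-46481255) and Tox on chromosome 4 (chr4:6686353-6991557). Exons of another gene overlap those of Tox (Gm11802, with at most 1 count in any kidney) and of Cd274 (AC119228.1, which was not analysed here), in both cases on the opposite strand. Whether counting used strand is not given in the sources used here, so reads of these overlapping exons cannot be told apart.

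Upstream windows were available from RefSeq for 6 of the 10 genes, and the 250 bases before the start of each were searched on both strands for 5 motifs. These were the NFAT core TGGAAA, the AP-1 site TGANTCA, the interferon-gamma-activated site TTCNNNGAA, the interferon regulatory factor repeat GAAANNGAA and the NF-kappaB site GGANTTTCC, each in a short form. They were held by 18.6%, 6.75%, 7.02%, 7.13% and 1.07% of 32851 windows of the same length, in that order, and the matches below do not overlap each other. Pdcd1 is shown because it had the largest difference between the strains among the 10 genes, and Ctla4 and Havcr2 because they held matches. Each sequence runs 5′ to 3′ on the strand of its gene and ends at the base before the start, and capitals mark a match: the interferon regulatory factor repeat and the NFAT core, both on the opposite strand, 166 and 144 bases before the start of Ctla4, and the AP-1 site 200 bases before the start of Havcr2.
Pdcd1, chr1:94052554-94052803, minus strand: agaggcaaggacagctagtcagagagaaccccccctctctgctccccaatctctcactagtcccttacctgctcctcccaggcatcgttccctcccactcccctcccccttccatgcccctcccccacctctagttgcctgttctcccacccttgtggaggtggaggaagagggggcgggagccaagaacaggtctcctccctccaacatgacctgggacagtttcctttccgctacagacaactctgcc
Ctla4, chr1:60908775-60909024, plus strand: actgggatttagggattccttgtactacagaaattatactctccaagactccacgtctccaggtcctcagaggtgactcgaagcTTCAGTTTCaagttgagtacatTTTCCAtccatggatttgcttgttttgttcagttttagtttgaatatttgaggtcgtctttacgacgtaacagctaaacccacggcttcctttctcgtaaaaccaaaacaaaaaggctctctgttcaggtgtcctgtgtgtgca
Havcr2, chr11:46454681-46454930, plus strand: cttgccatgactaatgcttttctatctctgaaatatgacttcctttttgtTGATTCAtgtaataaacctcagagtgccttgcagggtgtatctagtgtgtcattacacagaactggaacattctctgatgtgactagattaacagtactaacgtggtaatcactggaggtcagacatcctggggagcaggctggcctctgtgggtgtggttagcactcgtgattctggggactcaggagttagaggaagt
The windows of Cd274 (chr19:29367188-29367437, plus strand) and Tigit (chr16:43664185-43664434, minus strand) lie before a start inside the outer limits of the gene given above. That of Cd274 held the interferon regulatory factor repeat, on the opposite strand 76 bases before the start that the window uses. The windows of Pdcd1, Tigit and Pdcd1lg2 held no match to the 5 motifs, which says only that these letters are not in the windows.

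Libraries held between 33469858 and 38460873 counts, and 2 libraries of the Lpr group stood apart. Lpr replicate 2 had the highest summed level of the 8 T cell markers measured, 127 CPM against 42.9 to 68.6 CPM in the other Lpr kidneys. In Lpr replicate 3 long genes were under-represented, at -0.428 log2 units for each doubling of gene length against -0.0448 to 0.0853 in the other 10 libraries, so results that turn on either library are also given without it. The tissue label held up, in that every one of 8 kidney epithelial markers was detected in every library, and 0 of them were called in any comparison. Their summed level was 14989 to 16177 CPM in Ctr, 9707 to 13881 CPM in Lpr and 12304 to 15773 CPM in DNase, so every Lpr kidney lay below every Ctr kidney. The T cell markers (Cd3d, Cd3e, Cd3g, Cd247, Cd2, Cd5, Cd6 and Lck) summed to 3.48 to 6.79 CPM in Ctr, 42.9 to 127 CPM in Lpr and 47.7 to 86.1 CPM in DNase, and 0 of them were at 0 in any kidney. Levels are normalised read counts in CPM, scaled with TMM factors. Fold changes are on the log2 scale with their standard errors and come from edgeR (quasi-likelihood test), and p-values were adjusted by Benjamini and Hochberg's method over all genes tested. Following the rule of the study, a called gene had an adjusted p under 0.05 and a log2 fold change past 2 in either direction.

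In untreated MRL/lpr kidneys all 10 genes had a higher mean than in Ctr, and 8 of them were called higher: Pdcd1, Ctla4, Lag3, Tigit, Havcr2, Icos, Cd28 and Pdcd1lg2. Of the 16074 genes tested between Lpr and Ctr, 4.65% were called higher. The median log2 fold change of the 10 genes was 4.24, beside 0.03 over all genes tested. Without the fold threshold 9 of the 10 passed, beside 7.27% of all genes, since Cd274 passed the adjusted p but not the fold. That pass of Cd274 was lost in most of the fits that left out a library, as given below. Tox passed neither. For 9 of the 10 genes every Lpr kidney lay above every Ctr kidney, which was so for 14.4% of all genes tested. Because this is RNA of whole kidney, more cells of a type and more RNA per cell cannot be told apart, here or in any comparison that follows.

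Pdcd1, the PD-1 receptor, was nearly absent from Ctr kidneys, with 0.161, 0.0319 and 0 CPM in replicates 1 to 3 (6, 1 and 0 counts). The Lpr kidneys held 3.32, 21.5, 2.47 and 4.38 CPM, and the DNase kidneys 3.01, 3.48, 6.42 and 4.60 CPM. The strains did not overlap, and Lpr replicate 2 was 6.47-fold above the median of the other Lpr kidneys. From Ctr to Lpr it rose by 6.81 ± 1.23 (log2 fold change ± SE, edgeR, adjusted p = 0.00896). Since the whole Ctr group held only 7 counts, the ratio of pooled counts, 121, had a counting interval of 58.4 to 301 (exact, 95%). Here and below, pooled count ratios are per library total scaled with its TMM factor. Without Lpr replicate 2 the mean of Lpr fell from 7.91 ± 9.08 CPM (SD, n = 4) to 3.39 ± 0.959 CPM (SD, n = 3), the log2 fold change was 5.57, and the gene was still called. Without Ctr replicate 1, which held 6 of the 7 counts, it was 8.71.

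Ctla4, the receptor that competes with Cd28 for its ligands, was among the rarest of the 10 transcripts in Ctr, with Tigit and Pdcd1lg2. It had 0.0537, 0.0319 and 0.0300 CPM in Ctr, 0.450, 5.76, 0.331 and 0.569 CPM in Lpr, and 0.414, 0.761, 1.18 and 1.03 CPM in DNase. Lpr replicate 2 stood 12.8-fold above the median of the other Lpr kidneys, the widest gap of any of the 10 genes, and the other 3 Lpr kidneys lay above Ctr and below 3 of the 4 DNase kidneys. Its rise from Ctr to Lpr was 5.40 ± 1.41 (log2 fold change ± SE, edgeR, adjusted p = 0.0451), close to the threshold. Without Lpr replicate 2 it was 3.40 (adjusted p = 0.0132). Its adjusted p rose to 0.152 without Ctr replicate 1, 0.158 without Ctr replicate 2 and 0.155 without Ctr replicate 3, and DESeq2 gave no adjusted p for it. The pooled count ratio was 48.0 with a counting interval of 18.5 to 178, from 4 counts in Ctr.

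Lag3, an inhibitory receptor that binds MHC class II, had the steadiest difference. Its level was 1.02, 0.702 and 0.899 CPM in Ctr, 9.25, 13.3, 6.35 and 8.08 CPM in Lpr, and 7.06, 8.91, 15.6 and 8.02 CPM in DNase. Every MRL/lpr kidney held at least 6.35 CPM, above all Ctr kidneys. It rose in Lpr by 3.40 ± 0.349 (log2 fold change ± SE, edgeR, adjusted p = 0.000726), the smallest error of the 10 genes in that comparison. The value stayed between 3.16 and 3.54 with each library left out in turn.

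Tigit, which binds Pvr and Nectin2 in competition with Cd226, had 0.0537, 0 and 0.0599 CPM in Ctr. The Lpr kidneys held 1.41, 3.99, 1.11 and 1.37 CPM and the DNase kidneys 1.16, 2.04, 2.46 and 1.44 CPM, and all of them lay above Ctr. Its rise in Lpr was 5.55 ± 0.841 (log2 fold change ± SE, edgeR, adjusted p = 0.0041), and 4.92 without Lpr replicate 2. The pooled count ratio of 51.6 had a counting interval of 19.9 to 191, from 4 counts in Ctr.

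Havcr2, the TIM-3 receptor, which is also made by macrophages and dendritic cells, had 0.322, 0.479 and 0.210 CPM in Ctr. Levels were 1.80, 10.4, 3.01 and 2.93 CPM in Lpr and 2.23, 2.55, 4.69 and 2.88 CPM in DNase. Lpr replicate 2 was 3.56-fold above the median of the other Lpr kidneys, and no MRL/lpr kidney reached down to Ctr. From Ctr to Lpr Havcr2 rose by 3.76 ± 0.726 (log2 fold change ± SE, edgeR, adjusted p = 0.0123), and by 2.91 without Lpr replicate 2. Leaving out Ctr replicate 1 raised the adjusted p to 0.066, and leaving out Ctr replicate 3 to 0.0619. Of 7 markers of macrophages and monocytes 5 were also called higher in Lpr, as were all 8 T cell markers, beside 4.65% of all genes. The 7 summed to 119 to 156 CPM in Ctr and 514 to 977 CPM in Lpr, with 0 of them at 0 in any kidney. Within Lpr, replicates 1 to 4 held 725, 977, 754 and 514 CPM of them, so replicate 2 was highest for both them and Havcr2. Replicate 1 was lowest for Havcr2 and replicate 4 for the markers. The part of either cell type in the level of Havcr2 was not tested.

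Of the costimulatory receptors, Icos had 0.0537, 0.0638 and 0.120 CPM in Ctr. It had 2.00, 6.31, 1.95 and 1.34 CPM in Lpr and 1.38, 2.01, 2.84 and 1.93 CPM in DNase, so the strains did not overlap. Icos rose in Lpr by 5.15 ± 0.77 (log2 fold change ± SE, edgeR, adjusted p = 0.00383) and by 4.41 without Lpr replicate 2, and the pooled count ratio of 38.1 had a counting interval of 19.1 to 88.8. Cd28 was less rare in Ctr, at 0.215, 0.287 and 0.390 CPM. The Lpr kidneys were far apart for this gene, with 9.83 CPM in replicate 2 and 6.00 CPM in replicate 4 against 1.83 and 1.5 CPM in replicates 1 and 3, while the DNase kidneys lay close together at 3.47, 4.70, 4.22 and 4.73 CPM. Cd28 rose in Lpr by 4.01 ± 0.785 (log2 fold change ± SE, edgeR, adjusted p = 0.0131), and by 3.36 without Lpr replicate 2. The adjusted p of Cd28 rose to 0.0725, 0.0633 and 0.0514 without Ctr replicates 1, 2 and 3 in turn.

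The ligands of PD-1 differed from each other in their level in Ctr. Cd274 (PD-L1) was present in every Ctr kidney, at 7.38, 7.53 and 7.88 CPM. It had 43.5, 40.5, 8.48 and 25.9 CPM in Lpr and 25.2, 27.5, 27.0 and 21.7 CPM in DNase. Lpr replicate 3 lay just above Ctr, and the other 7 MRL/lpr kidneys at 21.7 CPM or more. Cd274 was higher in Lpr by 1.97 ± 0.496 (log2 fold change ± SE, edgeR, adjusted p = 0.0388), just under the fold threshold. Without Lpr replicate 3, the library poor in long genes, the difference was 2.27 (edgeR, adjusted p = 0.000505) and Cd274 was called. With the trend on gene length removed from every library it was 1.98 (adjusted p = 0.0267). Without any 1 of the other 6 libraries the adjusted p no longer passed, at 0.148, 0.136 and 0.127 without Ctr replicates 1, 2 and 3 and at 0.088, 0.0998 and 0.0622 without Lpr replicates 1, 2 and 4, and it was 0.0745 with the replicate number as a block.

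Pdcd1lg2 (PD-L2), which is made mainly by dendritic cells and macrophages, was rare in all groups. It had 0, 0.0319 and 0.120 CPM in Ctr, 2.19, 1.02, 0.752 and 0.711 CPM in Lpr, and 0.882, 1.79, 1.83 and 1.34 CPM in DNase. Lpr replicate 1 and not replicate 2 was the highest Lpr kidney, unlike in the 5 inhibitory receptors. It rose in Lpr by 4.47 ± 0.868 (log2 fold change ± SE, edgeR, adjusted p = 0.0126), with an adjusted p of 0.0652 without Ctr replicate 2. The fold ran from 3.87 without Ctr replicate 1 to 6.00 without Ctr replicate 3. From 5 counts in Ctr, the pooled count ratio of 23.9 had a counting interval of 10.1 to 74.7.

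Tox was the one gene whose Lpr and Ctr kidneys overlapped. Its level was 1.82, 2.62 and 1.62 CPM in Ctr, 2.87, 6.13, 1.71 and 4.21 CPM in Lpr, and 2.81, 3.75, 4.19 and 2.83 CPM in DNase. Lpr replicate 3 lay within the range of Ctr, and the lowest DNase kidney lay just above the highest Ctr kidney. Tox differed by 0.89 ± 0.447 (log2 fold change ± SE, 95% interval -0.12 to 1.91), which did not pass the test (edgeR, adjusted p = 0.303).

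**Figure D1:**
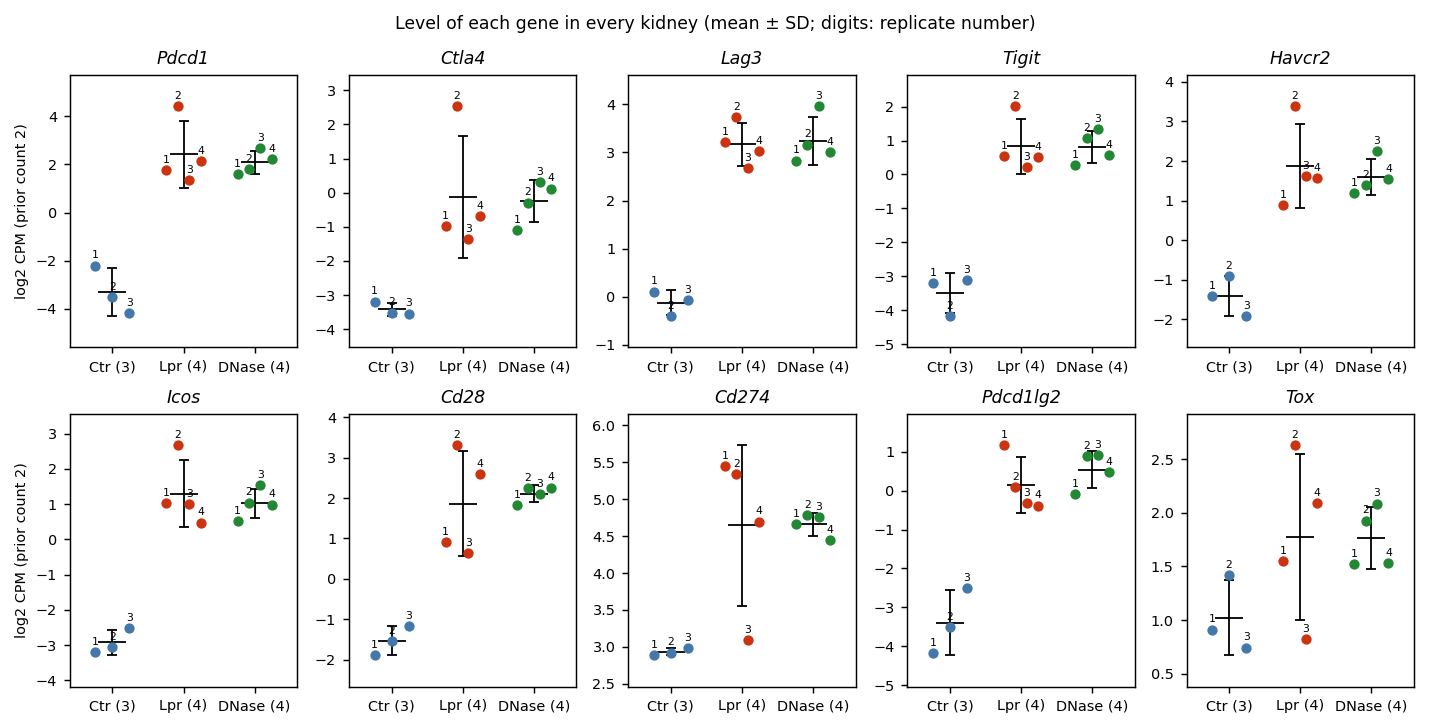
Level of each of the 10 genes in every kidney, as log2 CPM with a prior count of 2, by group (number of mice in brackets), with the mean and SD as bars and replicate numbers as digits. The y axes differ between panels. For 9 genes every MRL/lpr kidney lies above the 3 Ctr kidneys, with Lpr replicate 2 highest of its group for 8 genes, and for Tox the groups Lpr and Ctr overlap.

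Kidneys of treated mice were also compared with Ctr, a comparison that shares its control kidneys with the one above and so is not independent of it. Every DNase kidney lay above every Ctr kidney for all 10 genes, which was so for 18% of the 16100 genes tested, and 8 of the 10 were called higher against 4.56% of all genes tested. The called genes were the same 8 as between Lpr and Ctr, and the median log2 fold change was 4.08, beside 0.00 over all genes tested. Pdcd1 rose by 5.95 ± 0.637 (log2 fold change ± SE, edgeR, adjusted p = 0.000182), Ctla4 by 4.33 ± 0.592 (adjusted p = 0.000767) and Cd28 by 3.84 ± 0.281 (adjusted p = 2.11e-05). Cd274, at 1.74 ± 0.113 (adjusted p = 1.18e-05), was again under the fold threshold, so that 9 genes passed without it, beside 13.1% of all genes. Tox differed by 0.76 ± 0.252, with an adjusted p of 0.0622 from edgeR and 0.0295 from DESeq2. With each library left out in turn, 8 genes were called every time. Pdcd1 rose by 7.85 without Ctr replicate 1, and Pdcd1lg2 by 4.19 without that library and 6.34 without Ctr replicate 3, beside 4.80 with all.

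DNase I treatment itself was not accompanied by a called difference in any of the 10 genes. Between DNase and Lpr 0% of 15832 genes tested were called in either direction, and 5.6% had an unadjusted p under 0.05, which none of the 10 genes reached. DESeq2 called 2 genes higher (0.011%) and 3 lower (0.0165%) in DNase, none of them among the 10. It gave no adjusted p for Pdcd1 and Ctla4 here, so it could not call them. The mean was lower in DNase for 8 of the 10 genes, beside 52.9% of all genes tested, and DNase and Lpr kidneys overlapped for all 10. Of all genes, 1.92% lay higher and 1.87% lower in every DNase than in every Lpr kidney. The adjusted p lay between 0.854 and 0.951. The fold changes had wide intervals, -0.85 for Pdcd1 (95% interval -2.29 to 0.60), -1.07 for Ctla4 (-3.03 to 0.90), -0.55 for Havcr2 (-1.71 to 0.62) and -0.50 for Icos (-1.58 to 0.57) on the log2 scale. Those of Lag3 (0.10, -0.57 to 0.78), Cd274 (-0.22, -1.12 to 0.69) and Tox (-0.13, -0.95 to 0.69) were narrower but still held changes of more than 1.5-fold in at least 1 direction. Pdcd1lg2 had a log2 fold change of 0.33 (-0.62 to 1.27), Tigit -0.15 (-1.15 to 0.86) and Cd28 -0.16 (-1.35 to 1.03).

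The direction of these differences rested on Lpr replicate 2. Without it 9 of the 10 genes were higher in DNase and 1 was lower, and 7 changed sign: Ctla4 to 0.90, Cd28 to 0.46, Tigit to 0.45, Pdcd1 to 0.37, Havcr2 to 0.26, and Icos and Tox both to 0.21 on the log2 scale. The lowest adjusted p among the 10 genes was then 0.787. Without Lpr replicate 3 the lowest was 0.393, for Cd274, at a log2 fold change of -0.53. Without both of these libraries, a setting chosen after seeing the data, 8 genes were higher and 2 lower.

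**Figure D2:**
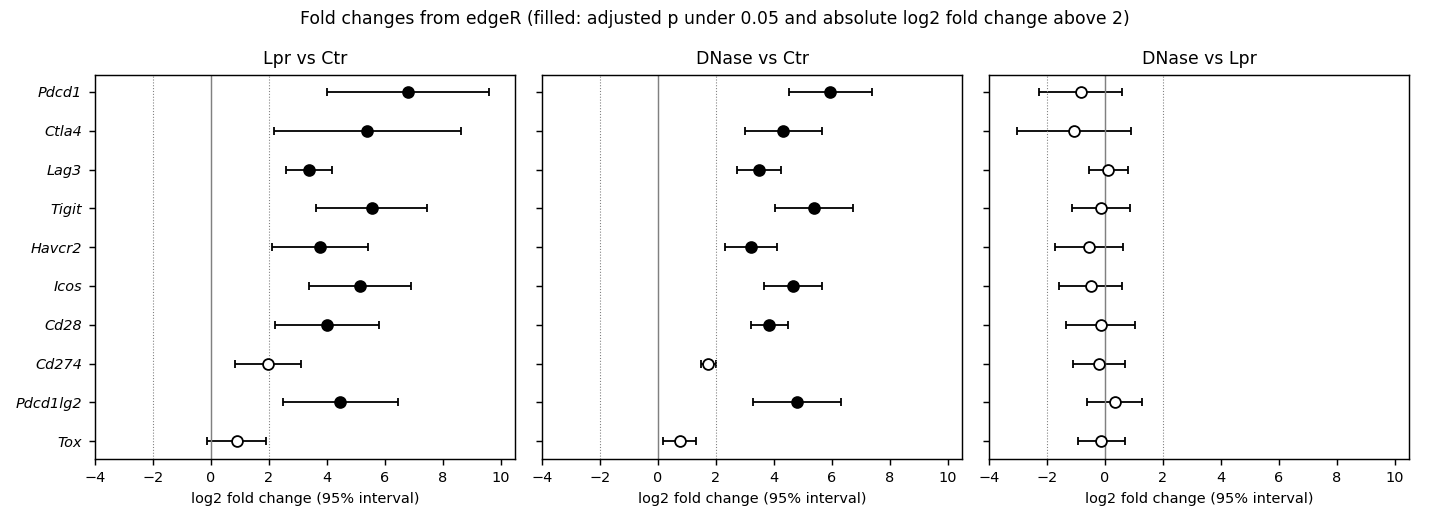
Log2 fold change of each gene with its 95% interval from edgeR, for Lpr against Ctr, DNase against Ctr and DNase against Lpr, with filled points for called genes and dotted lines at the fold threshold. In both comparisons with Ctr 8 of 10 points are filled, and in DNase against Lpr every interval covers 0.

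Levels between genes were compared per length, as FPKM. Cd274 had the highest mean in all 3 groups, at 1.79 ± 0.0904 FPKM (SD, n = 3) in Ctr, 7.29 ± 4.02 FPKM (SD, n = 4) in Lpr and 6.42 ± 0.743 FPKM (SD, n = 4) in DNase. It exceeded the next gene in 3 of 3 Ctr kidneys, but exceeded Lag3 in only 3 of 4 Lpr and 3 of 4 DNase kidneys. In Ctr Tox came next at 0.426 FPKM and Lag3 at 0.423 FPKM, without a consistent order between them, and every other gene had a mean of 0.119 FPKM or less. In Lpr the order ran Cd274, Lag3 (4.63 ± 1.64 FPKM) and Pdcd1 (4.17 ± 4.89 FPKM), where Lag3 exceeded Pdcd1 in 3 of 4 kidneys. In DNase Lag3 (5.11 ± 2.03 FPKM) exceeded Pdcd1 (2.34 ± 0.817 FPKM) in 4 of 4 kidneys, and Pdcd1 exceeded Havcr2 (1.17 ± 0.424 FPKM) in 4 of 4. Cd28, Tigit, Tox, Icos, Ctla4 and Pdcd1lg2 had means between 0.340 and 1.07 FPKM in Lpr and between 0.409 and 0.971 FPKM in DNase. In Lpr no neighbours among these 6 kept their order in all 4 kidneys, and in DNase only Tox above Icos did. Ordered by mean, Tox thus stood at place 2 in Ctr, 8 in Lpr and 7 in DNase. Its own mean did not fall, at 0.426 FPKM in Ctr, 0.827 FPKM in Lpr and 0.771 FPKM in DNase.

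Set against the T cell receptor complex, the genes fell into different patterns. The level relative to Cd3 is the log2 CPM of a gene minus the mean log2 CPM of Cd3d, Cd3e and Cd3g in the same kidney, and it is a description without a test. The 3 Cd3 genes were each called higher in Lpr, with log2 fold changes of 4.05 (Cd3d), 3.99 (Cd3e) and 4.15 (Cd3g), so a gene that did not move at all would be lower on this scale. Of all genes tested, 95.7% lay lower in every Lpr than in every Ctr kidney relative to Cd3, and 0.137% lay higher. Of the 10 genes, 2 lay lower without overlap, Cd274 and Tox, and the other 8 overlapped. Between DNase and Ctr, 97.2% of all genes lay lower and 0.335% higher, while of the 10 genes Pdcd1 lay higher and Cd274 and Tox lower. Ctla4 also lay apart at the prior count used, but its direction turned with another, as given below. Between DNase and Lpr none of the 10 lay apart, beside 0.284% of all genes that lay higher and 0.0821% lower.

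Pdcd1 was at -1.73, -2.38 and -3.40 relative to Cd3 in Ctr, at -0.39, 0.58, -1.92 and -0.71 in Lpr, and at -0.75, -0.96, -0.59 and -0.90 in DNase. The Ctr values rest on 7 counts and move with the prior count: the mean of Lpr was 1.89 above that of Ctr at a prior count of 2 and 2.85 above it at 0.5. All DNase kidneys and 3 of 4 Lpr kidneys lay above Ctr, and Lpr replicate 3, with the gene length trend, lay within it. In pooled counts there were 3.98 Pdcd1 counts per 100 Cd3 counts in Ctr (counting interval 1.58 to 8.37), 28.3 in Lpr (26.5 to 30.2) and 17.7 in DNase (16.3 to 19.2). Without Lpr replicate 2 the Lpr value was 14.9, below that of DNase. The Lpr kidneys ran from 7.61 to 46.0 counts per 100 and the DNase kidneys from 15 to 20.3.

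Cd28 had a like proportion to Cd3 in the pooled counts of all 3 groups. It was 17 per 100 in Ctr (counting interval 11.2 to 25.2), 16.9 in Lpr and 17.1 in DNase. Lpr kidneys ran from 4.64 to 26.5. The pooled Lpr value was 13.7 without replicate 2 and 21.1 without replicate 3, so the likeness turns on single kidneys. Tigit had 2.27 counts per 100 in Ctr (counting interval 0.612 to 5.92), 6.91 in Lpr and 7.13 in DNase, and relative to Cd3 on the log2 scale its mean in Lpr was 0.49 above Ctr at a prior count of 2 and 1.46 at 0.5. Icos had 4.55 counts per 100 in Ctr (1.93 to 9.15), 10.2 in Lpr (7.70 without replicate 2) and 8.21 in DNase. The intervals of Tigit and Icos in Ctr were wide. The Ctr range of Icos over kidneys, 2.47 to 7.27 per 100, reached into that of Lpr, 5.90 to 14.1. Lag3 had 51.1 counts per 100 in Ctr, 32.0 in Lpr and 39.9 in DNase, and Havcr2 had 19.3, 16 (11.2 without Lpr replicate 2) and 12.5, with ranges that overlapped in each case. Ctla4 had 2.27 counts per 100 in Ctr, 6.43 in Lpr and 3.42 in DNase, and in Lpr it ran from 1.02 in replicate 3 to 12.3 in replicate 2. Without that library the pooled Lpr value was 1.98, below both Ctr and DNase, so the order of the groups turns on 1 kidney. Its lower place in DNase on the log2 scale turned with the prior count, from -0.51 at 2 to 0.17 at 0.5, so no direction is given for it.

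Tox and Cd274 did not keep pace with Cd3, which held for most genes, as given above. Both still had a higher mean CPM in Lpr than in Ctr, and which cells made them was not tested. Tox had 116 counts per 100 Cd3 counts in Ctr (counting interval 94.3 to 143), 13.0 in Lpr (11.9 to 14.2) and 13.6 in DNase (12.4 to 14.9). Cd274 had 440 per 100 in Ctr (373 to 521), 103 in Lpr (98.6 to 107) and 101 in DNase (96.8 to 106). Counting intervals cover counting error only, and the kidneys varied more. In Lpr Cd274 ran from 26.2 per 100 in replicate 3, the library poor in long genes, to 308 in replicate 1. Its pooled Lpr value was 130 without replicate 3 and 74.9 without replicate 1. Pdcd1lg2 had 2.84, 4.01 and 5.87 per 100 in Ctr, Lpr and DNase, with Lpr replicate 1 at 15.5 and the other Lpr kidneys down to 2.18. The pooled Lpr value was 2.43 without replicate 1. Its mean relative to Cd3 was 0.26 higher in DNase than in Ctr at a prior count of 2 and 1.22 higher at 0.5.

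**Figure D3:**
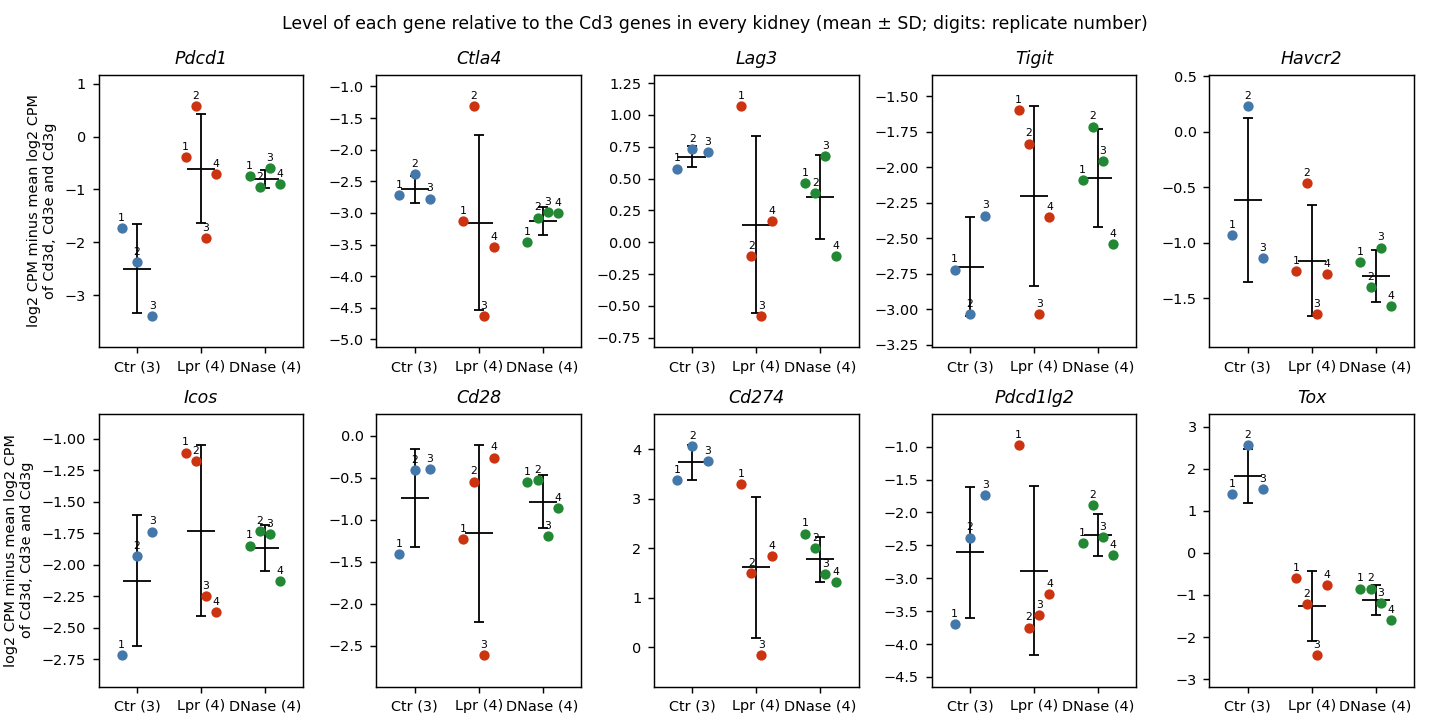
Level of each gene relative to the Cd3 genes in every kidney, as log2 CPM minus the mean log2 CPM of Cd3d, Cd3e and Cd3g (prior count of 2), by group, with mean and SD as bars and replicate numbers as digits. The y axes differ between panels. Cd274 and Tox lie lower in all MRL/lpr kidneys than in Ctr, Pdcd1 lies higher in all DNase kidneys, and Lpr replicate 3 is the lowest Lpr kidney for 8 of the 10 genes.

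Over the 8 MRL/lpr kidneys the SD of log2 CPM was largest for Ctla4 (1.25), Pdcd1 (0.97) and Cd28 (0.87) and smallest for Lag3 (0.44). Without Lpr replicate 2 it fell to 0.63 for Ctla4 and 0.45 for Pdcd1 and stayed at 0.74 for Cd28, and the median over the 10 genes fell from 0.71 to 0.45. For Cd274 Lpr replicate 3 made most of the spread, 0.72 with it and 0.37 without it.

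By the steadiness of the difference in log2 CPM over all 11 kidneys, the nearest genes to each of the 10 were taken from 13161 candidates with at least 1 CPM on average. The measure is the SD of that difference, and since the groups differ in most of these genes it mainly shows a like step between strains. Nearest to Lag3 was Itgb2, the beta subunit of leukocyte integrins (SD 0.17), and nearest to Tigit were Ly9 (0.27) and Cd84 (0.29), receptors of the SLAM family. Icos had Cd200r4 (0.30) and Tnfrsf4 (0.31, OX40), Cd28 had the T-box factor Eomes (0.40), and Havcr2 and Ctla4 both had Plek (0.36 and 0.53), a protein of platelets and leukocytes. Pdcd1 had no close neighbour, with Cd6, a T cell surface receptor, first at 0.64. Cd274 was nearest to Ubxn10 (0.19) and to Dtx3l (0.22), an interferon-induced ubiquitin ligase, Pdcd1lg2 to Trim34b (0.50), and Tox to Ache (0.23), Pced1b (0.27) and Nfatc1 (0.27).

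The partners of these receptors were read from a list of 38 other co-signalling genes, all listed in the files, of which 33 could be tested between Lpr and Ctr. Of these, 18 were called higher and 1 lower, beside 4.65% and 1.13% of all genes tested, and the median log2 fold change was 2.33. Cd80, a ligand of Cd28 and Ctla4, had 0.0805, 0.0638 and 0.0300 CPM in Ctr and 0.928 to 3.10 CPM in Lpr, and rose by 4.72 ± 0.688 (log2 fold change ± SE, edgeR, adjusted p = 0.0034). Cd86, the other ligand of both receptors, was higher throughout, at 0.957 to 1.61 CPM in Ctr and 6.50 to 14.1 CPM in Lpr, and rose by 2.94 ± 0.381 (adjusted p = 0.00199).

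The ligands of Icos and Tigit did not pass the test. Icosl had 8.39 to 13.1 CPM in Ctr and 7.58 to 16 CPM in Lpr, a difference of 0.07 on the log2 scale (edgeR, adjusted p = 0.914). Nectin2 differed by 0.25 (adjusted p = 0.588) and Pvr by -0.09 (adjusted p = 0.908), while Cd226, the activating receptor for the same ligands, was called at 2.48 ± 0.395 (adjusted p = 0.00502). Lgals9, a ligand of Havcr2, had 16.1 to 18.0 CPM in Ctr and 20.1 to 46.1 CPM in Lpr, a difference of 0.94 (adjusted p = 0.0665). Fgl1, a ligand of Lag3 known from the liver, was the gene called lower. Ctr kidneys held 2.74 ± 0.391 CPM of it (SD, n = 3) and Lpr kidneys 0.154 ± 0.160 CPM (SD, n = 4), and edgeR gave a log2 fold change of -4.15 at an adjusted p of 0.00697. Ceacam1, a further ligand of Havcr2, passed the adjusted p alone, at -1.59.

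Of 7 receptors of the TNF receptor family tested on the list, 5 were called higher, among them Tnfrsf4 (OX40) at 5.21, Tnfrsf9 (4-1BB) at 5.05 and Tnfrsf18 (GITR) at 2.96 on the log2 scale. Cd40 (1.99) and Tnfrsf25 (0.46, adjusted p = 0.703) were not called. Slamf6, a SLAM family receptor, had the largest rise on the list, 5.40 ± 0.672 (log2 fold change ± SE, edgeR, adjusted p = 0.00173), followed by Tnfrsf4, Tnfrsf9 and Btnl2 (4.97), a butyrophilin-like inhibitor. Btla, an inhibitory receptor of lymphocytes, was called at 2.33. In Ctr these genes held few counts, 9 for Slamf6, 7 for Tnfrsf4, 6 for Tnfrsf9 and 5 for Btnl2 over the 3 kidneys.

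Between DNase and Lpr 33 of the 38 were tested and 0 were called, 23 were lower in DNase (52.9% of all genes), and 3 had an unadjusted p under 0.05 (5.6% of all genes): Cd40lg, higher by 1.30, Lgals9 at -0.57 and Pvr at -0.80 on the log2 scale. Their adjusted p was 0.82, 0.854 and 0.854 from edgeR. DESeq2 called 0 of the list. Between DNase and Ctr 34 were tested, with 19 called higher and 1 lower, beside 4.56% and 1.45% of all genes tested.

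**Figure D4:**
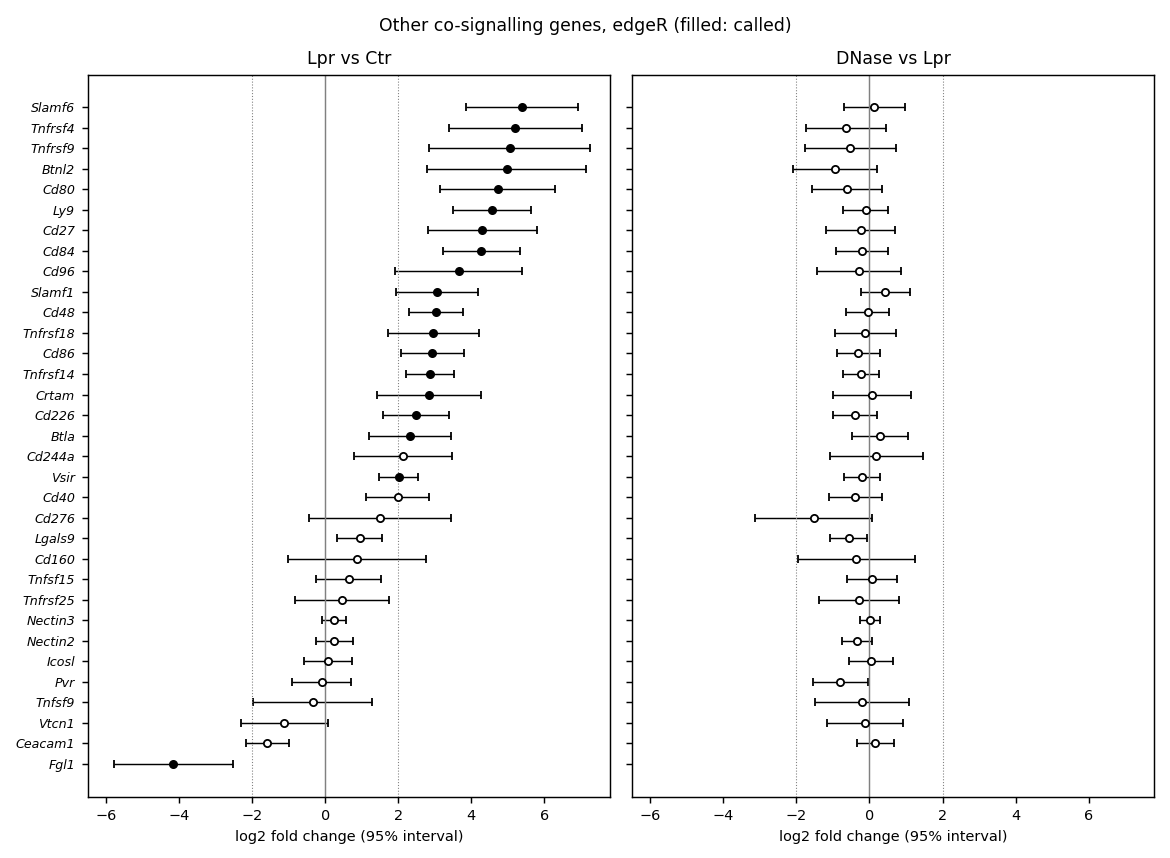
Log2 fold change with its 95% interval from edgeR for the other co-signalling genes tested between Lpr and Ctr (left) and between DNase and Lpr (right), ordered by the left panel, with filled points for called genes and dotted lines at the fold threshold. On the left 18 points are filled above 2 and Fgl1 is filled below -2, and on the right no point is filled.

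Factors and adaptors around these receptors were read in the same way, beside 4.65% of all genes called higher between Lpr and Ctr. Of 19 tested factors linked to the state of T cells, 4 were called higher between Lpr and Ctr and the median log2 fold change was 1.33. Among them were Eomes (4.26), which shapes cytotoxic cells, Batf (3.63), a partner of AP-1 in activated T cells, and Tbx21 (2.68), the factor of type 1 helper cells. Nfatc1, the calcium-driven factor, differed by 0.61 (edgeR, adjusted p = 0.367). Of 12 tested adaptors and enzymes that act below these receptors, 5 were called higher, with a median of 1.22, among them Lcp2 (3.30), an adaptor of antigen receptor signalling. All 8 genes of the interferon-gamma response were called higher, with a median of 3.48, among them Cxcl9 (4.36), Gbp2 (4.21), Ifng itself (4.09) and Ciita (3.65). Between DNase and Lpr 0 genes of these 3 lists were called. All 8 interferon-gamma genes had a negative fold change in DNase with a median of -0.51, beside 52.9% of all genes lower. The kidneys overlapped: the summed level was 790 to 929 CPM in DNase and 2187, 1579, 614 and 926 CPM in Lpr replicates 1 to 4. Of the 8 genes 1, Cxcl10, had an unadjusted p under 0.05 (-1.10, with an adjusted p of 0.82 from edgeR), beside 5.6% of all genes.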

How the data were processed

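Kidney RNA was measured in 11 mice with 1 library each: 3 in Ctr, 4 in Lpr and 4 in DNase. The authors deposited raw gene counts (paired reads of 100 bp), for which their methods name HTSeq 0.6.0. The FPKM values were deposited by the authors and were made from the same counts by library total and gene length. The submitters' processing notes name fastp, HTSeq, DESeq2, R 3.2.0 and mm10. The aligner and the strand setting are not given in the sources used here.

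Groups were compared in pairs, each fit holding the libraries of its 2 groups alone, with edgeR 4.0.16 in R 4.3.3 (filterByExpr, TMM, quasi-likelihood test, Benjamini-Hochberg). Calls followed the rule of the study (adjusted p under 0.05, log2 fold change past 2), whose DESeq2 (here 1.42.0) was run as an alternative. All 10 genes passed the filter on low counts in every comparison. Log2 CPM used a prior count of 2, and CPM were scaled over all 11 libraries. Standard errors were taken from the fold change and its F statistic. Pooled counts have exact 95% Poisson or binomial intervals, which cover counting error only. Other settings were DESeq2's size factors or plain library totals, no filter, no fold threshold, a fit of all 3 groups, a robust fit, removal of the gene length trend, a replicate block and another unit (limma 3.58.1 on log2(FPKM + 1) or, with the smaller pseudocount, log2(FPKM + 0.1), over genes of at least 0.5 FPKM on average) and, in turn, each library left out. The level relative to Cd3 was also taken against Cd3e alone, against the 8 T cell genes and with a prior count of 0.5. Figures used matplotlib 3.10.9. The procedure was tested on simulated data.

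The 10 genes and the lists were chosen with earlier results of these data known. All 10 were named in every comparison, as were the ligands and partners Cd80, Cd86, Icosl, Pvr, Nectin2, Lgals9, Cd226, Tnfrsf4, Tnfrsf9, Tnfrsf18 and Btla. Of each other list the text may name up to 4 called genes with the largest fold change, or where none was called the 2 with the smallest p, and for likeness the 3 nearest genes. Genes outside the rule (Cd40lg, Cd40, Tnfrsf25, Ceacam1, Fgl1, Nfatc1, Bcl6, Il2ra, Ikzf2, Ikzf4) were named after their values were seen. Markers of T cells (8 of 11 symbols listed), kidney epithelium and macrophages are given in the text. Sequences and positions are from RefSeq, and exon overlaps from GENCODE, both on GRCm38.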

Additional observations from a re-analysis of the deposited data

Results flagged for a closer look

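In groups of 4, a kidney was set apart when its gap to the nearest other kidney, divided by the range of the group, exceeded Dixon's 95% critical value, and 8 of 68 groups tested did so, where chance gives about 1 in 20 of independent groups. These groups are not independent, since most gaps are of 1 kidney over genes that move together, so the count is not read against that share. All 8 were found in CPM without a log. The rule was not applied to log2 CPM, where a gap above the other kidneys takes a smaller share and may not pass. In 7 of the 8 Lpr replicate 2 lay above the other Lpr kidneys. The share of the range was 0.899 for Pdcd1, 0.956 for Ctla4, 0.898 for Tigit, 0.86 for Havcr2 and 0.867 for Icos. It was also 0.836 for Cd3e and 0.958 for Tnfrsf9. Cd28, Lag3, Cd274, Pdcd1lg2 and Tox had no kidney set apart in this way. The summed level of the 8 T cell markers was also highest in Lpr replicate 2, at 127 CPM. So was that of the 7 macrophage and monocyte markers, at 977 CPM. No kidney was set apart by the rule in the level relative to Cd3. That level is on the log2 scale, so this cannot be set against the gaps in CPM without a log. The part of either cell type in these gaps was not tested further. In the DNase group 1 gap was found, DNase replicate 1 below the others for Tnfrsf18, at 0.847.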

How the results depend on the processing

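Nearly all shifts came from the scale and from single libraries. On log2(FPKM + 1) limma called 0 of the 10 genes between Lpr and Ctr and 1 between DNase and Ctr, with or without the filter, and 2 of the co-signalling list in each; on log2(FPKM + 0.1) it called 5 and 4 of the 10 and 11 and 10 of the list. The filter for FPKM left 7 and 6 of the 10 genes and 23 and 21 of the list to be tested, without Ctla4, Icos and Pdcd1lg2 in both comparisons and without Tigit in DNase against Ctr; the 5 and 4 calls were all of the tested genes that edgeR called. At a pseudocount of 1, which understates the change of rare genes, the same genes were tested and fewer were called. Between Lpr and Ctr the adjusted p from limma was then 0.0687 for Pdcd1, 0.0626 for Tigit, 0.0981 for Havcr2 and 0.159 for Cd28. Lag3 passed it (0.00161) and missed the fold at 1.94. Between DNase and Ctr Pdcd1, Havcr2 and Cd28 passed the adjusted p and missed the fold alone. With each library left out in turn, the calls among the 10 ran from 5 to 9 between Lpr and Ctr (5 without any one Ctr kidney, 9 without Lpr replicate 3, when Cd274 was added), from 8 to 8 between DNase and Ctr and from 0 to 0 between DNase and Lpr. For the co-signalling list they ran from 15 to 20, from 18 to 20 and from 0 to 0. Calls lost without a Ctr kidney were Ctla4 and Cd28 (any of the 3), Havcr2 (replicate 1 or 3) and Pdcd1lg2 (replicate 2). The number of genes not overlapping relative to Cd3 ran from 2 to 4 between Lpr and Ctr (4 without Lpr replicate 2), from 0 to 1 between DNase and Lpr (1 without Lpr replicate 1) and from 4 to 6 between DNase and Ctr (6 without Ctr replicate 1, Ctr replicate 3 or DNase replicate 3). The median SD over MRL/lpr kidneys ran from 0.448 to 0.761 in log2 CPM, where it was 0.448 without Lpr replicate 2, and from 0.445 to 0.693 relative to Cd3. Cd274 was also called with library totals alone (2.02).

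Between DNase and Lpr, where nothing was called, signs changed in several settings, and the cause was not tested. With each library left out in turn the log2 fold change ran from -1.15 to 0.37 for Pdcd1, -1.42 to 0.90 for Ctla4, -0.20 to 0.32 for Lag3, -0.35 to 0.45 for Tigit, -0.82 to 0.26 for Havcr2, -0.74 to 0.21 for Icos, -0.46 to 0.46 for Cd28, -0.53 to 0.033 for Cd274 and -0.37 to 0.21 for Tox. Leaving out Lpr replicate 2 turned all of these but Lag3 and Cd274. Without Lpr replicates 2 and 3 together the values were 0.19 for Pdcd1, 0.73 for Ctla4, 0.36 for Tigit, 0.39 for Havcr2, 0.29 for Icos and 0.13 for Cd28. On log2(FPKM + 0.1) Tigit was 0.034, Cd28 0.23, Cd274 0.069 and Tox 0.028; on log2(FPKM + 1) Cd28 was 0.028 and Cd274 0.018, with or without the filter. Relative to Cd3, Ctla4 between DNase and Ctr was 0.17 at a prior count of 0.5.

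Replicate numbers are shared by the groups, but same-numbered kidneys did not deviate together (correlations from -0.277 to 0.159), so the numbers were not taken as pairs. With the replicate number as a block 8, 0 and 8 of the 10 genes were called in Lpr against Ctr, DNase against Lpr and DNase against Ctr, the adjusted p of Cd274 between Lpr and Ctr rose to 0.0745, and Cd28 between DNase and Lpr turned to 0.23. For genes with 8 counts or fewer over the 3 Ctr kidneys the depth limits the size of the fold.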

Other observations

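Genes that mark regulatory and follicular helper T cells, cells known to carry Ctla4, Icos or Pdcd1, were read beside the checkpoint genes. Foxp3, the factor of regulatory T cells, held 0.0495 ± 0.035 CPM (SD, n = 3) in Ctr, 0.784 ± 0.442 CPM (SD, n = 4) in Lpr and 1.65 ± 0.462 CPM (SD, n = 4) in DNase. Between DNase and Lpr it had 1.08 on the log2 scale (edgeR, adjusted p = 0.85). The 4 regulatory T cell genes had a median of 0.20 in that comparison, with 3 higher and 1 lower in DNase and 0 called. Between Lpr and Ctr 1 of 4 regulatory T cell genes was called, Foxp3 at 3.91 (edgeR, adjusted p = 0.00846), while Il2ra had 2.68 (adjusted p = 0.0725), Ikzf4 0.86 and Ikzf2 (Helios) 0.08. Of the follicular helper genes 3 of 4 tested were called between Lpr and Ctr, beside 4.65% of all genes. Cxcr5, the homing receptor of follicular helper T cells and B cells, was called at 5.10 (edgeR, adjusted p = 0.0156), Il21 at 4.36 and Sh2d1a at 4.27, and Bcl6 had 0.33 (adjusted p = 0.842).

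All 5 B cell markers had a higher level in DNase kidneys than in untreated ones, by a median of 1.38 on the log2 scale, where 52.9% of all genes were lower. Of these 5, 3 had an unadjusted p under 0.05 (5.6% of all genes) and 0 were called by edgeR. DESeq2 called 1 of them, Pax5, beside 0.011% called higher of the 18131 genes to which it gave an adjusted p. Cd40lg, by which helper T cells act on B cells, held 0.226 ± 0.0674 CPM (SD, n = 4) in Lpr and 0.557 ± 0.138 CPM (SD, n = 4) in DNase (edgeR, adjusted p = 0.82). These genes were singled out after their values were seen.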
